A study of Homo sapiens with 12 samples.

Results

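The RNA profile of U87 cells that received only vehicle was described from 3 arrays of the 12 in the series, with no comparison between treatments. Each array measured total RNA of an independent culture of U87, an adherent line derived from a human glioblastoma, the most malignant of the common astrocytic brain tumors, and purchased from ATCC. The cells had grown in medium with fetal serum, were moved for 24 h to medium free of phenol red with charcoal-stripped serum, which holds little steroid, and then received the vehicle (V) for 72 h. The vehicle was 0.1% DMSO by the sample characteristics and the study's methods, while the treatment protocol on the same records names 10%, and the lower value is taken here. The other 9 arrays held cells treated with 3α-THP, P4 or F. They enter only where V replicate 2 is described and in an alternative ranking by the mean over all 12 arrays. U87 is a line passaged for decades in serum, so its RNA describes that line in a dish and not a tumor with its vessels, leukocytes and neurons.

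The Human Gene 1.0 ST array holds 33297 rows (transcript clusters), each summarized from probes spread over a transcript and given as a log2 value, on which 1 unit is a doubling of signal. Of these rows, 19460 carry exactly 1 gene name and were ranked by their mean over the 3 V arrays, 1754 carry several names and 12083 none. The ranked rows stand for 18417 genes, and a gene with several rows was taken at its brightest. The rank is an order of brightness: rows of different genes also differ in how well their probes bind, so it is not a strict order of RNA amounts.

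Glioblastoma cells carry traits of astrocytes, the glial cells that feed neurons, but in serum many lines take on a mesenchymal program. In that program a cell builds and remodels collagen-rich matrix and pulls on it through integrins and actin. Tumors of this kind are commonly sorted into proneural, classical and mesenchymal groups by the genes they express. They also depend on glycolysis, and the loss of the cell cycle inhibitors on the short arm of chromosome 9 is among their most frequent lesions.

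The files hold no call of presence or absence, so brightness was read against families of genes that glial cells are known not to use. The 379 rows of olfactory receptors, the odor sensors of the nose, had a median of 3.53, and their 95th percentile, called the olfactory level, lay at 5.34, 5.24 and 5.30 on V replicates 1, 2 and 3. The 117 rows of hair and skin families (keratin-associated proteins, late cornified envelope proteins and defensins) were brighter, with a median of 4.97, and their 95th percentile, the skin-family level, lay at 7.72, 7.50 and 7.63. A gene over the olfactory level on all 3 arrays therefore overlaps with families not expected in these cells, and both levels are given for most groups. The olfactory level was passed on all 3 arrays by 13235 rows (68.0% of the ranked rows), while 5355 (27.5%) stayed at or below it on all 3 and 870 were mixed. The stricter skin-family level was passed by 4575 rows (23.5%). By gene, 12538 (68.1%) passed the olfactory level, 5069 (27.5%) did not on any array and 4366 (23.7%) passed the skin-family level, and these shares are the background for each group below.

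**Figure D1:**
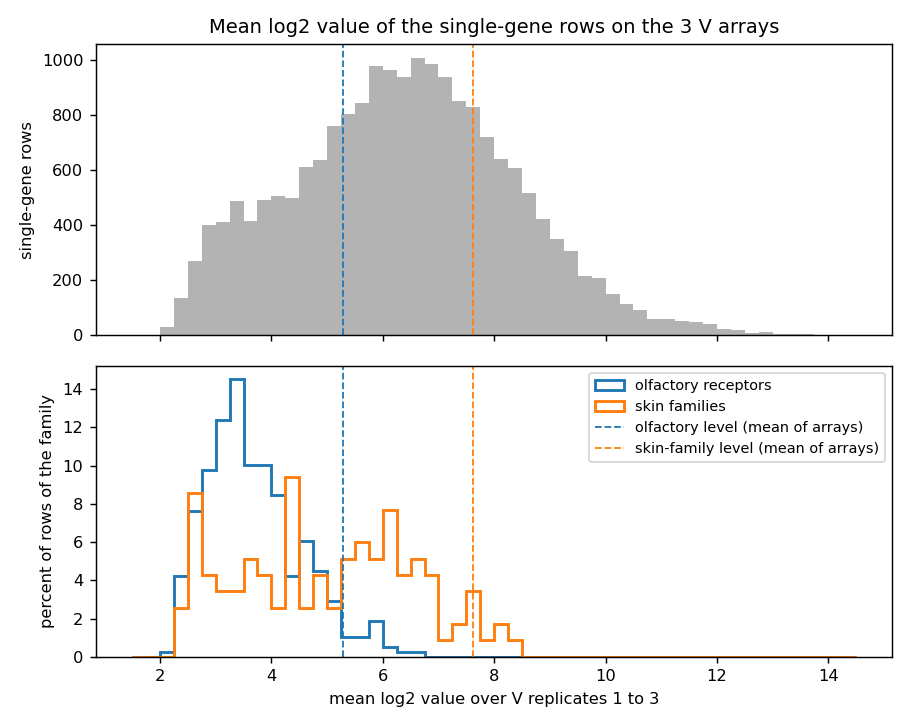
Top, number of single-gene rows (y axis) by mean log2 value over the 3 V arrays (x axis); bottom, percent of the rows of olfactory receptors and of the skin families in the same bins, with dashed lines at the mean olfactory and skin-family levels. The olfactory receptors gather around 3.53, whereas the skin families reach 8.46, so the region between the lines holds rows whose state these arrays do not settle.

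The arrays agreed closely. Between arrays, Pearson's r over the ranked rows was 0.989 for V replicates 1 and 2, 0.995 for 1 and 3 and 0.992 for 2 and 3, given as a description across rows that share probes and normalization. Of the 50 rows with the highest mean, 48, 47 and 48 were also among the 50 brightest of each array taken alone, in the order of the replicates. The dim end was less settled, with 36, 33 and 36 of the 50 dimmest shared. The median SD over arrays was 0.12 for rows above the olfactory level, 0.13 for rows at or below it and 0.072 for the 50 brightest rows.

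Only 70 rows had a mean over 12. The brightest gene was GAPDH, the glycolytic enzyme that oxidizes glyceraldehyde 3-phosphate, with 13.70, 13.73 and 13.81 on V replicates 1, 2 and 3. MT2A, a metallothionein that binds zinc and copper, followed at 13.40, 13.73 and 13.52. The ranges of these genes overlapped, so their order is not settled. Next came a block of secreted matrix proteins. TGFBI, a matrix protein induced by TGF-β that links collagen to integrins, read 13.32, 13.16 and 13.35. FN1, fibronectin, read 13.21, 13.09 and 13.21. SPARC, a collagen-binding matrix protein, read 13.13, 12.97 and 13.28. All 3 were lowest on V replicate 2. MMP2, the gelatinase that cleaves basement membrane collagen, read 13.09, 13.02 and 13.14, and LOXL2, which crosslinks collagen, 12.61, 12.39 and 12.77. With COL1A2 at 12.81 and TIMP1, an inhibitor of the matrix metalloproteases, at 12.54, matrix genes took 7 of the 30 brightest places.

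The other places of the 30 went to the common machinery of the cell. Cytoplasmic actin ACTG1 read 13.15, 13.13 and 13.07, and the actin-binding peptide TMSB10 12.45, 12.44 and 12.44, which was the narrowest range of the 30. The glycolytic enzymes ENO1, PKM and LDHA had means of 12.94, 12.81 and 12.62. Elongation factor EEF1A1 stood at 12.87, ribosomal protein RPS27 at 12.76, the intermediate filament VIM at 12.50 and S100A10, the partner of annexin 2, at 12.58. The endoplasmic reticulum proteins P4HB, which makes disulfide bonds and is a subunit of collagen prolyl hydroxylase, and HSP90B1, its HSP90 chaperone, stood at 12.85 and 12.82. The lysosomal protease CTSD was at 12.80 and SCD, which desaturates fatty acids, at 12.51. Noncoding RNAs filled the remaining places: the small nucleolar RNAs SNORD33 and SNORD13 at 12.95 each, the SNORD13 copy SNORD13P3 at 12.56, the nuclear long RNA MALAT1 at 12.78, and RMRP, the RNA of the RNase MRP complex, at 12.42. The values of neighbors in this order overlapped between arrays in 27 of 29 pairs (all but FAF2 with TGFBI and MMP2 with SNORD33), so the order within the 30 is not settled gene by gene.

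For FAF2, PLCG2, MPLKIP and MALAT1 among the 30 the rows of the gene disagreed, and their place is uncertain. FAF2 had rows at 13.52 and 8.90, PLCG2 at 13.09 and 4.75, and MPLKIP at 12.42, 12.29 and 7.63. MALAT1 had 2 rows, and the dimmer lay more than 2 log2 units below the one ranked. PLCG2 encodes a phospholipase of blood cells, and its dimmer row lay at or below the olfactory level. Across the table, 769 genes had several rows, and in 138 of them the rows lay more than 2 log2 units apart. Rows of EEF1A1, of ribosomal proteins and of metallothioneins can also share signal with near-identical copies, which these probes cannot separate.

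**Figure D2:**
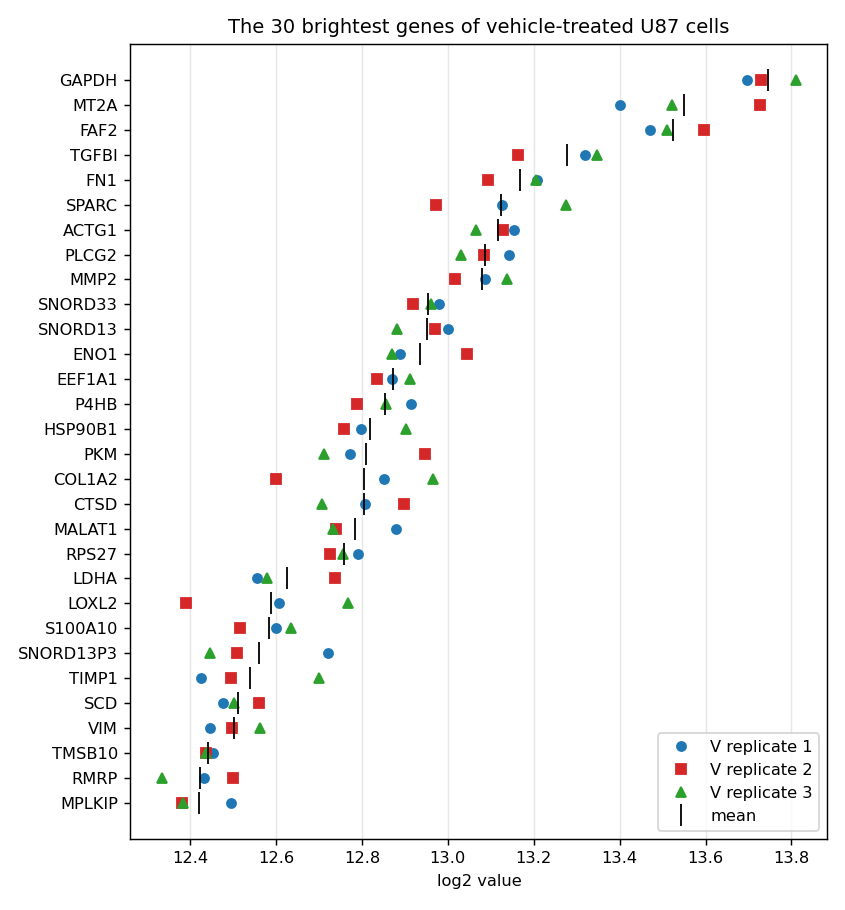
Log2 value (x axis) on each of the 3 V arrays (colored points) and their mean (black bar) for the 30 brightest genes, in order of the mean. GAPDH and MT2A lead, and V replicate 2 lies lowest for the matrix genes TGFBI, FN1, SPARC, COL1A2 and LOXL2 and highest for ENO1, PKM and LDHA.

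Protein synthesis was the brightest of the larger groups. Of 66 cytosolic ribosomal proteins measured, 65 passed the olfactory level and 57 the skin-family level, with a median of 10.60 against 6.39 over all genes. RPS27, RPS4X, RPL34 and RPS28 led at 12.76, 12.42, 12.41 and 12.28. The dimmest, RPL22L1 and RPL39L at 5.51 and 5.61, are paralogs of ribosomal proteins. All 9 elongation factors and their partners passed the olfactory level and 7 the skin-family level (median 10.74), and the dimmest was EEF1A2, the form of neurons and muscle, at 6.20. The splicing and RNA-binding proteins were similar, with 25 of 26 past the olfactory level and 24 past the skin-family level (median 9.49), led by PABPC1, the poly(A)-binding protein, at 12.31. HNRNPA1 was the member not above the level on all arrays, at 5.30 by its rows with 1 gene name. Rows with several gene names were not ranked, so any HNRNPA1 signal on such rows is not counted, and this value does not show that the gene is silent.

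Promoter sequences of the brightest genes were read from RefSeq's table for GRCh38.p14, which gives 250 bases before and 50 after 1 annotated start per gene and matched 13770 protein-coding genes. They are shown because the brightest genes carried the letters marked below more often than all genes did. Lines give 60 bases before and 20 bases from the start on, and capitals mark TATAA (either strand, 40 to 20 bases before the start) and 4 pyrimidine words read on the coding strand within 10 bases of the start. These are CTTTC as in RPS27, CTTTT as in EEF1A1, CTTCC as in RPL34 and CTCTT as in TMSB10, and such tracts mark messages of the translation machinery. These words can overlap each other, the windows of TATAA and of the tract do not, and the genes printed were picked after their values were seen, to show promoters with each feature and, in PMCH, a dim gene for contrast.

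FN1 (chr2:215436049-215436128, minus strand): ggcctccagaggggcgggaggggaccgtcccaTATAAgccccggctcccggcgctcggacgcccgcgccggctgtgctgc
P4HB (chr17:81860516-81860595, minus strand): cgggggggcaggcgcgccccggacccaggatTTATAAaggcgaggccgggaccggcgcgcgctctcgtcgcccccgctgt
EEF1A1 (chr6:73521013-73521092, minus strand): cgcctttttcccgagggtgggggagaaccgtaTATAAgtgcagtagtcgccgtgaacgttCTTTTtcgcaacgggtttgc
RPS27 (chr1:153990702-153990781, plus strand): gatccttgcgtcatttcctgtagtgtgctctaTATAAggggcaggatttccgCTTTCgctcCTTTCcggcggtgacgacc
RPL34 (chr4:108620516-108620595, plus strand): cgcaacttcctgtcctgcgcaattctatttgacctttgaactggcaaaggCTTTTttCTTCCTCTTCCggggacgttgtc
TMSB10 (chr2:84905596-84905675, plus strand): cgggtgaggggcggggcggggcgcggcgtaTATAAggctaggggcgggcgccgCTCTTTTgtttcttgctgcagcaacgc
PMCH (chr12:102197814-102197893, minus strand): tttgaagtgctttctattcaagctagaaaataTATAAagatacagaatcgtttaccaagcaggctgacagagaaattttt

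The matrix gene FN1 and the collagen-modifying P4HB carry TATAA inside GC-rich sequence, whereas PMCH, a peptide hormone of the hypothalamus that read 2.19 in these cells, carries it in AT-rich sequence with 1 CG in 300 bases. TATAA stood in this window in 22% of the 100 brightest genes, 10.4% of the 500 brightest, 5.97% of all genes and 12.2% of the 500 dimmest. It was thus more frequent at both ends of the order than among all genes. CG dinucleotides separated the ends: the median count in 300 bases was 27 in the 500 brightest genes, 23 in all genes, 7 in genes at or below the olfactory level, 3 in the 500 dimmest and 1 in olfactory receptors. The tract stood at the start of 37 of 55 ribosomal protein promoters (67.3%), against 24% of the 100 brightest genes and 11.9% of all. A match is a run of letters in the window and not a measured site.

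Glycolytic genes were bright as a group. All 18 measured members passed the olfactory level and 17 the skin-family level (median 10.53). Beside GAPDH, ENO1, PKM and LDHA, PGK1, which makes ATP in the same pathway, stood at 12.18 and the glucose transporter SLC2A1 at 11.27. The dimmest was PFKM, the muscle form of phosphofructokinase, at 7.48. Of 79 nuclear genes of the respiratory chain and ATP synthase, 72 passed the olfactory level and 50 the skin-family level, with a median of 8.21. ATP5F1B, the catalytic subunit of ATP synthase, led at 11.08, and the dimmest were COX7B2 at 3.31 and COX6B2 at 3.89, forms of cytochrome oxidase subunits known from testis.

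Genes that fold, degrade and recycle proteins were bright as groups. All 29 chaperones passed the olfactory level and 26 the skin-family level (median 9.94), with P4HB and HSP90B1 followed by the calcium-binding CALR at 12.38 and the proline isomerase PPIB at 12.35. All 21 lysosomal genes passed the olfactory level and 20 the skin-family level (median 10.20), where CTSA and CTSB, both proteases, and the membrane protein CD63 followed CTSD at 11.76, 11.75 and 11.72. The proteasome was lower, with 34 of 36 subunits past the olfactory level, 25 past the skin-family level and a median of 8.83. Its dimmest members, PSMA8 at 3.14 and PSMB11 at 3.95, are the subunits of testis and thymus.

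Metallothioneins stood out from most small families. All 10 passed the olfactory level and 5 the skin-family level, with a median of 9.81 (the family was gathered after its values were seen). MT1G, MT1F, MT1X and MT1E followed MT2A at 11.79, 11.63, 11.55 and 11.55. MT1X read 11.21, 12.11 and 11.33, so V replicate 2 stood above the other two. Among other iron and redox genes, FTL, the ferritin light chain, stood at 11.80, and GPX3, a secreted peroxidase, was the dimmest at 5.21.

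Matrix glycoproteins were bright as a group, while collagens and integrins held a few very bright members and many near the olfactory level. Of 34 matrix glycoproteins and remodeling enzymes, 30 passed the olfactory level and 24 the skin-family level (median 9.90), or 70.6% against 23.7% of all genes. MMP1, an interstitial collagenase, at 4.44 and TIMP3, an inhibitor held in the matrix, at 4.27 were the dimmest. Of 43 collagen genes, 29 passed the olfactory level, a share near the background, and 9 the skin-family level (median 6.61). COL1A2 read 12.85, 12.60 and 12.97. Its partner chain COL1A1 stood at 12.40, and COL6A1 and COL6A3, chains of the microfibrillar collagen VI, at 11.41 and 11.36. COL6A6 and COL6A5, the alternative chains of collagen VI, were the dimmest at 3.58 and 3.02.

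Integrins, the receptors that hold cells to this matrix, split in the same way. Of 25 measured, 17 passed the olfactory level and 8 the skin-family level (median 5.82). ITGA5, which pairs with ITGB1 as the fibronectin receptor, stood at 11.15, ITGAV at 11.07, ITGA3 at 10.89 and ITGB1 at 10.37, whereas ITGB6 and ITGA8 were at 4.02 and 4.01. The actin cytoskeleton was bright throughout, with 32 of 33 members past the olfactory level and 29 past the skin-family level (median 10.20), and ACTN4 and TPM4, an actinin and a tropomyosin, at 11.90 and 11.81. TAGLN, a smooth muscle actin-binding protein, was the exception at 5.38. Tubulins were led by TUBB at 12.20 and TUBB4B at 11.43, and 16 of 20 passed the olfactory level and 9 the skin-family level. Among annexins, S100 proteins and galectins, 16 of 21 passed the olfactory level and 13 the skin-family level, from S100A10 and S100A11 at 12.58 and 12.37 down to S100A8 at 3.27 and ANXA3 at 3.09.

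**Figure D3:**
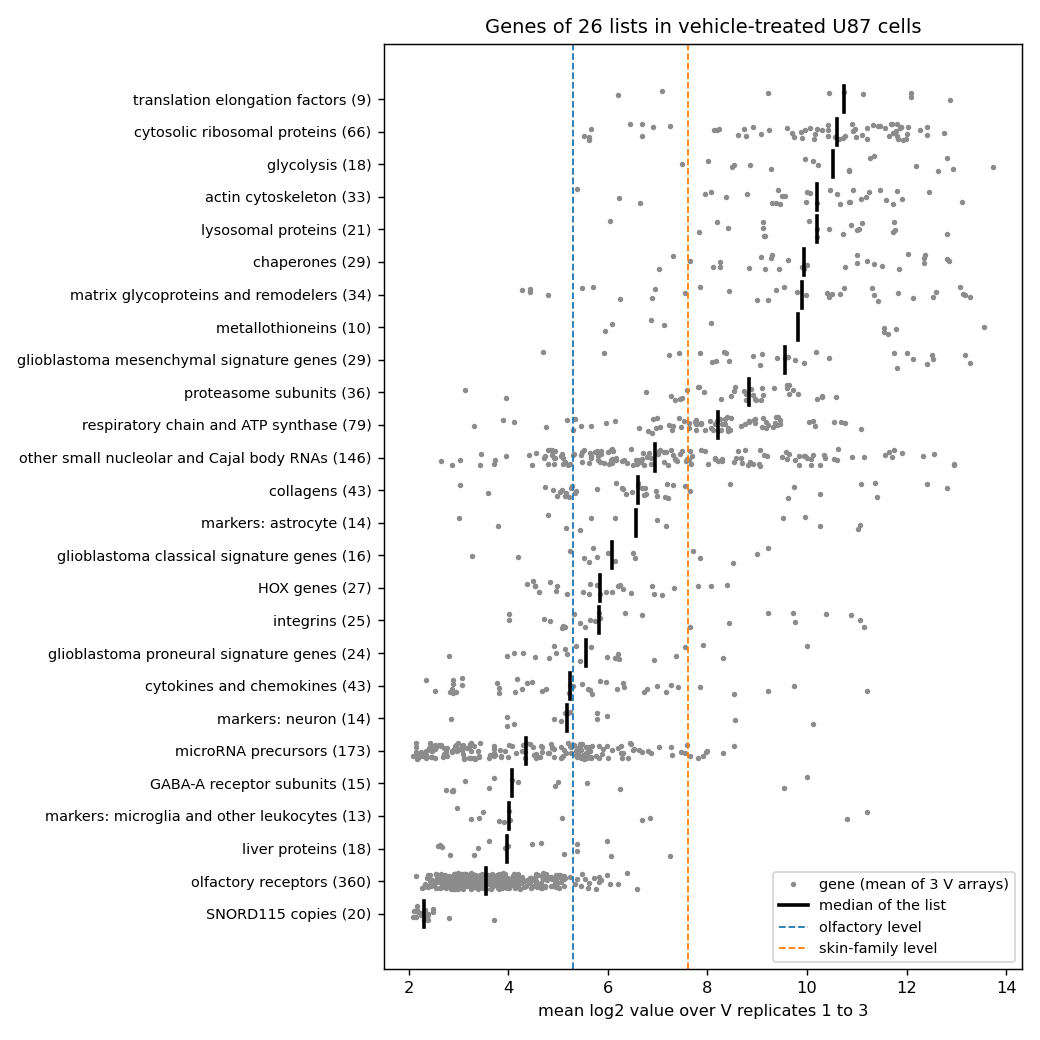
Mean log2 value over the 3 V arrays (x axis) of every measured gene (points) in 26 gene lists (rows, number of genes in parentheses), with the median of each list (black bar) and the 2 reference levels (dashed lines). Translation, glycolysis, actin and lysosomal genes lie mostly right of both lines, and SNORD115 copies and olfactory receptors lie mostly left of both.

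Genes known as marks of the 3 glioblastoma groups differed in brightness. Of 29 mesenchymal signature genes, 28 passed the olfactory level and 24 the skin-family level (median 9.55), and TGFBI, FN1, TIMP1 and VIM led. CASP1, the inflammatory caspase, was the dimmest at 4.70. Of 16 classical signature genes, 13 passed the olfactory level and 4 the skin-family level (median 6.07), led by the kinase AKT2 at 9.22 and EGFR at 8.99. Of 24 proneural signature genes, 14 passed the olfactory level and 3 the skin-family level (median 5.55). The brightest of them was GABRA3, a GABA-A receptor subunit, at 10.01, followed by the transcription factor TCF4 at 8.32, while the neuronal migration protein DCX and the receptor phosphatase PTPRZ1 were at 3.97 and 2.81. The lists share matrix genes with those above, and no subtype was assigned from them.

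Receptors for growth factors were read with their ligands. Of 31 receptors, 22 passed the olfactory level and 13 the skin-family level (median 6.77). TGFBR1, a TGF-β receptor, stood at 10.77, FGFR1 at 10.64, AXL at 9.99 and MET, the receptor of hepatocyte growth factor, at 9.93. FLT1, a VEGF receptor of endothelium, and KIT, the stem cell factor receptor, were the dimmest at 3.33 and 3.27. EGFR read 8.97, 9.06 and 8.95, with little spread between the arrays, and FGFR1 10.75, 10.50 and 10.68. Among 30 secreted growth factors, 23 passed the olfactory level and 12 the skin-family level (median 7.16), led by VEGFA, the main angiogenic factor, at 11.38, TGFB2 at 10.53, PDGFC at 9.88 and VEGFC at 9.68. HGF, the ligand of MET, was near the bottom at 4.05.

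Of 23 genes known as tumor suppressors or oncogenes, 20 passed the olfactory level and 16 the skin-family level. The brightest were NF1, which restrains RAS, at 10.33, CDK4 at 10.14, IDH1, a dehydrogenase often mutated in lower-grade glioma, at 9.53, and MDM2, a ubiquitin ligase, at 9.38. MGMT, the repair enzyme whose silencing is linked to the response to alkylating drugs, stood at 6.19, between the levels.

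The marker lists were read as a check of the label, and in RNA of a whole culture fewer cells of a type and less RNA per cell cannot be told apart. Of 14 astrocyte markers, 10 passed the olfactory level and 5 the skin-family level (median 6.56). GLUL, which makes glutamine from glutamate, GJA1, the astrocyte connexin, CLU, a secreted chaperone, and ALDOC, a brain aldolase, stood at 11.06, 11.03, 10.26 and 9.96. GFAP, the astrocyte filament that defines the lineage, had a mean of 6.15 (SD 0.16, n = 3) and lay above the olfactory level and below the skin-family level on each array, lowest on V replicate 2. S100B, a calcium-binding protein of astrocytes, at 3.78 and AQP4, the water channel of their end feet, at 3.00 were at or below the olfactory level. The filaments as a group showed the same contrast, with VIM at 12.50, the nuclear lamin LMNA at 9.10 and the neuronal filaments NEFM and INA at 5.14 and 3.73.

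Markers of the other cells of the brain were mostly dim. Of 14 neuron markers, 5 passed the olfactory level and 2 the skin-family level: ENO2, a neuronal enolase also known from tumors, at 10.12 and SNAP25, a protein of vesicle fusion, at 8.55. The defining neuronal genes DCX and ELAVL4 read 3.97 and 2.85. Of 11 oligodendrocyte lineage markers, 6 passed the olfactory level, but only ENPP2, which makes lysophosphatidic acid, passed the skin-family level, at 10.31, and the myelin genes MBP and MAG stood at 4.37 and 4.24. Of 13 markers of microglia and other leukocytes, 4 passed the olfactory level: TMEM119 at 11.20, CD68 at 10.80, CSF1R at 6.84 and TYROBP at 6.69. The pan-leukocyte phosphatase PTPRC and the microglial receptor P2RY12 read 2.97 and 3.24, so the bright TMEM119 and CD68 stood beside dark defining genes of these cells. Endothelium had EGFL7, an endothelial matrix factor, and CLDN5, a tight junction protein, at 6.48 past the olfactory level among 10 markers and none past the skin-family level, and PECAM1 was at 4.07.

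Markers of mesenchymal cells and pericytes were brighter than those of neurons, leukocytes and endothelium, with 12 of 15 past the olfactory level and 6 past the skin-family level. Their median of 6.61 was near the 6.56 of astrocyte markers and the 6.39 of all genes. They were led by COL1A2, COL1A1, the ecto-nucleotidase NT5E at 10.42 and the smooth muscle actin ACTA2 at 9.37, although THY1 and RGS5 were at 5.01 and 5.06. Epithelial markers passed the olfactory level in 5 of 11 genes and the skin-family level in none, and CDH1, the epithelial cadherin, and EPCAM read 4.26 and 3.61. Among melanocyte markers, only the transcription factor MITF of 5 passed the olfactory level, at 6.48, and TYR, the pigment enzyme, read 3.13. Of 12 neural stem cell markers, 9 passed the olfactory level and none the skin-family level. They were led by PAX6 and HES1 at 6.97 and 6.73, and the membrane marker PROM1 read 3.61.

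Since the series concerns steroids, their receptors and enzymes were read in the untreated state. Of 14 receptors, 9 passed the olfactory level and 2 the skin-family level: NR3C1, the glucocorticoid receptor, with 9.54, and the membrane-associated PGRMC2 with 9.24. PGR, the nuclear progesterone receptor, was the dimmest at 3.96, at or below the olfactory level on each array, whereas PAQR8, a membrane progestin receptor, read 6.99, between the levels. Of 28 steroid-converting enzymes, 15 passed the olfactory level and 3 the skin-family level. HSD17B12 and HSD17B4, dehydrogenases that also serve fatty acid metabolism, stood at 9.62 and 8.29. SRD5A1, the 5α-reductase that starts the conversion of progesterone to 3α-THP, stood at 7.91. HSD3B2, which makes progesterone, was at 3.17 and AKR1C4 at 2.70.

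GABA-A receptors, the chloride channels that 3α-THP modulates in neurons, showed a split family. GABRA3 and GABRQ, neighbors on the X chromosome, stood at 10.01 and 9.53, and they were the members past the skin-family level. GABRD and GABRR2 at 6.25 and 5.57 passed the olfactory level, and the other 11 of 15 did not, down to GABRG1 at 2.86 and GABRR3 at 2.75. No subunit of the β class passed the olfactory level among those with a row of their own.

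Of 43 cytokines and chemokines, 20 passed the olfactory level (46.5%, against 68.1% of all genes) and 5 the skin-family level. CSF1, the macrophage growth factor, stood at 11.20, the neutrophil chemokine CXCL8 at 9.73, the death ligand TNFSF10 at 9.23 and the granulocyte factor CSF3 at 8.53, whereas IL2 and IL18 read 2.53 and 2.34. In antigen presentation, B2M, the light chain of MHC class I, stood at 12.39 and TAPBP, its loading factor, at 10.52. HLA-DPA1 and HLA-DPB1, chains of a class II molecule, stood at 9.11 and 8.13, while HLA-DQA1 and HLA-DQB1, chains of another, were at 4.92 and 3.62.

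Small nucleolar RNAs, which guide chemical changes of ribosomal and spliceosomal RNA from the introns of host genes, held both some of the brightest and some of the dimmest rows. Outside the imprinted clusters, 114 of 146 passed the olfactory level and 52 the skin-family level (median 6.94), with SNORD33, SNORD13, SNORD13P3 and SNORD95 from 12.95 to 12.33. SNORD13P1 and SNORD20 were the dimmest of them at 2.64 and 2.87. The SNORD115 copies, known from neurons and lying in the Prader-Willi region of chromosome 15, were all at or below the level: 20 of 20, with a median of 2.30 and a highest value of 3.72 for SNORD115-24. The neighboring SNORD116 copies differed from each other. SNORD116-15, SNORD116-14, SNORD116-20 and SNORD116-24 stood at 11.20, 9.91, 9.77 and 9.72, past both levels, and none of the other 16 passed even the olfactory level on all arrays, down to SNORD116-16 at 2.30. SNORD116-15 held its level over the arrays, with 11.31, 11.01 and 11.28. Copies of a family are close in sequence, and which genomic copy gives the signal was not tested. The 6 SNORD113 and SNORD114 copies, from an imprinted cluster of chromosome 14, were all at or below the level, from 2.31 to 3.60. These RNA classes were separated after their values were seen.

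MicroRNA precursors were dim as a class: 55 of 173 passed the olfactory level and 6 the skin-family level (median 4.35). A row measures RNA that holds the sequence of the hairpin, and the mature RNA cut from it was not measured on its own. A mature sequence of each of the 4 brightest and the 4 dimmest precursors is given from RefSeq (GRCh38.p14) to identify them, with the seed, bases 2 to 8, which pairs with target messages, in capitals. Of the 173 precursors, 164 matched an entry.

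miR-326 (precursor 8.53): cCUCUGGGcccuuccuccag
miR-21-5p (8.31): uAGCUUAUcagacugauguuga
miR-339-5p (7.99): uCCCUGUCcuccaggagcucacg
let-7i-5p (7.97): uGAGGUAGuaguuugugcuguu
miR-135a-2-3p (2.14): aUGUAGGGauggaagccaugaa
miR-106a-5p (2.14): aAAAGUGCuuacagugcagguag
miR-215-5p (2.13): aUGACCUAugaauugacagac
miR-376c-3p (2.09): aACAUAGAggaaauuccacgu

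No seed was shared among these 8. MIR21, a microRNA known to be raised in glioblastoma, lies on chromosome 17 (chr17:59841273-59841294 for its 5p arm, plus strand). MIR376C belongs to the imprinted microRNA cluster of chromosome 14 (chr14:101039732-101039752 for its 3p arm, plus strand), and MIR106A lies on the X chromosome (chrX:134170244-134170266, minus strand). Long intergenic RNAs resembled the precursors, with 67 of 206 past the olfactory level and 4 past the skin-family level (median 4.77), from LINC00965 at 8.21 down to LINC00301 at 2.31.

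Families that mark other tissues, and the interferon alpha genes, were dim, to different degrees. Of 360 olfactory receptor genes, 15 passed the level that their own rows set, led by OR9Q2 at 6.59. The 8 interferon alpha genes were all at or below it (median 2.86), and the same genes are counted again in the run near MTAP below. Defensins were at or below it in 25 of 27 genes (median 3.38, the exceptions DEFB124 at 6.16 and DEFB132 at 5.57). Of 18 liver proteins, 3 passed the olfactory level, SERPINA1 at 7.24, AMBP at 6.07 and APOA1 at 5.97, and F9 read 2.59. MAGE and related tumor antigens passed it in 6 of 32 genes, with MAGEA8 at 7.36 and CTAG2 at 7.06, and the skin-family level in none. Cytochromes P450 passed it in 17 of 48, and CYP1B1, which oxidizes estrogens and aromatic compounds, was far brighter than the rest at 11.02. The drug-metabolizing CYP3A4 was the dimmest at 2.83. Potassium channels passed the olfactory level in 41 of 86 genes and the skin-family level in 2, the calcium-gated KCNN3 and KCNMA1 at 7.95 and 7.91.

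By contrast, 37 of 67 keratin-associated proteins and 12 of 17 late cornified envelope proteins passed the olfactory level, up to KRTAP5-7 at 8.46 and LCE1D at 8.23, although both families belong to hair and skin. These are 55.2% and 70.6%, against 68.1% of all genes, and passing the olfactory level alone was not read as expression for any gene here. The keratins of the cytoskeleton passed it in 16 of 48 genes and the skin-family level in none, with KRT79, KRT8 and KRT18 at 7.40, 7.31 and 7.20.

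The other tissue-restricted lists had few members past the stricter level. Of 16 pituitary, pancreas and gut hormones, 5 passed the olfactory level and none the skin-family level, and TSHB, a pituitary hormone subunit, read 2.66. Striated muscle proteins passed the olfactory level in 7 of 19 genes, led by the troponin TNNT1 at 7.87, hemoglobins and red cell proteins in 1 of 7 and photoreceptor proteins in 1 of 11. Sperm proteins passed it in 3 of 14, and ODF2, which also sits at centrosomes, was the member past the skin-family level at 8.18. Serpins, a family of protease inhibitors, passed the olfactory level in 9 of 31 genes. Their brightest member was SERPINH1 at 10.66, which is no inhibitor but the collagen chaperone of the endoplasmic reticulum. Solute carriers were closer to the background, with 234 of 359 past the olfactory level and 74 past the skin-family level. They were led by SLC38A2, a glutamine transporter, at 11.45, the glucose transporter SLC2A1 and the zinc transporter SLC39A14 at 11.15. Of 69 histone genes, 47 passed the olfactory level and 12 the skin-family level, with H2AC20 at 11.47 and the linker histone H1-4 at 10.02, although histone messages share much sequence.

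Families of transcription factors and adhesion molecules that set cell identity were read against the 68.1% and 23.7% of all genes past the lower and the stricter level. Of 27 HOX genes, which pattern the body axis, 17 passed the olfactory level and 3 the skin-family level, HOXD10 at 8.38, HOXB2 at 8.07 and HOXD11 at 7.82. HOXD9 stood next at 7.32, and HOXA2 and HOXD12 were the dimmest at 4.50 and 4.38. Of 19 SOX factors, 14 passed the olfactory level and SOX3 alone the skin-family level, at 7.72, and SOX2, a factor of neural stem cells, was the dimmest at 4.12. Of 39 forkhead factors, 30 (76.9%) passed the olfactory level and 8 (20.5%) the skin-family level, near the shares of all genes, led by FOXJ3 at 9.80. Of 21 cadherins, CDH2, the neural and mesenchymal cadherin, stood alone past the skin-family level at 9.52, the next was CDH15 at 6.74 and the dimmest were CDH9 and CDH19 at 2.84 and 2.75. Clustered protocadherins, whose genes lie side by side on chromosome 5, passed the olfactory level in 26 of 31 genes (83.9%) and the skin-family level in 5 (16.1%), from PCDHB16 at 9.01, PCDHB9 at 8.43, PCDHB5 at 8.22 and PCDHB2 at 8.04 down to PCDHB4 at 3.51.

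At the dim end stood small RNAs, zinc finger genes, olfactory receptors and single genes of other kinds. The lowest row was FBXW10B, an F-box gene, at 1.98, 2.02 and 2.03. The zinc finger gene ZNF443 read 2.05, 2.07 and 2.08 and ZNF846 2.18, 1.98 and 2.16. QRFPR, the receptor of a hypothalamic peptide, read 2.10, 2.17 and 1.87 in its dimmer row and 3.36 on average in the other. Of the 20 dimmest genes, each taken at its dimmest row, 6 were SNORD115 copies and 6 were microRNA precursors, and the rest included OR6C70 at 2.14, CCDC172 at 2.13 and LINC00910. The zinc finger genes named ZNF spanned the array: 277 of 480 passed the olfactory level and 37 the skin-family level, from ZNF207, a spindle assembly protein, at 9.80 down to ZNF443.

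Genes near MTAP on the short arm of chromosome 9 were dim together. U87 is known as a line without CDKN2A, which encodes the inhibitor p16, CDKN2B, which encodes p15, and MTAP, an enzyme that salvages methylthioadenosine. The arrays measured RNA, and DNA copies were not tested. MTAP read 4.27, 3.80 and 4.07, at or below the olfactory level on each array. It closed a run of 18 consecutive measured genes, from MLLT3 on, of which none passed the level, and the highest mean in the run was 4.49. Of these 18, 11 were interferon genes, which unstimulated cells are known not to express. The others included FOCAD, a gene linked to focal adhesion, at 3.59, HACD4, an enzyme of fatty acid elongation, at 2.66 and KLHL9, a ubiquitin ligase adaptor used in mitosis, at 4.06. The run was the 8th longest of its kind on the arrays, and the longest, 49 genes on chromosome 11, began and ended with olfactory receptors. The 300-base promoters of MTAP and KLHL9 held 15 and 19 CG dinucleotides. Genes at or below the level had a median of 7 with quartiles of 2 and 22. All genes had a median of 23 with quartiles of 10 and 32. Both counts lay within the quartiles of genes at or below the level and of all genes, so they do not separate these classes. Counts for the other genes of the run are not given.

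CDKN2A itself read 5.03, 4.79 and 5.23, at or below the olfactory level on each array, while CDKN2B read 5.66, 5.47 and 5.71 and the antisense gene CDKN2A-AS1 5.38, 5.58 and 5.39, just over it. All lay at or below the skin-family level on each array, in the region where hair and skin genes also lie. DMRTA1, the next gene, averaged 6.02 and ELAVL2, a neuronal RNA-binding protein, 3.32. On the other side of the run, RPS6, a ribosomal protein, read 10.10, 10.18 and 10.12.

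**Figure D4:**
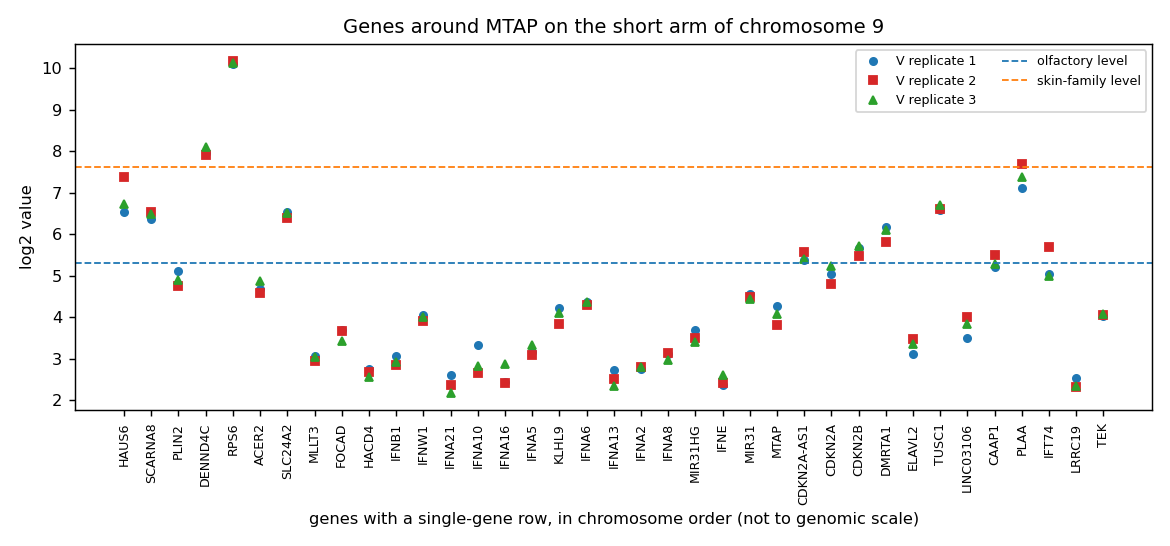
Log2 value (y axis) on the 3 V arrays (symbols) of genes around MTAP in chromosome order (x axis, evenly spaced), with the olfactory and skin-family levels as dashed lines. The genes from MLLT3 to MTAP lie below the lower line on every array, CDKN2A lies just below it and CDKN2B just above it, and RPS6 stands above 10.

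The largest differences between the V arrays followed 1 culture. Of 13677 rows whose mean lay above the mean olfactory level, 150 (1.10%) spanned more than 1 log2 unit over the 3 arrays, and V replicate 2 was the highest in 142 of them and the lowest in 7. A row can enter this set through a high value on V replicate 2 alone. Among the rows above the level on all 3 arrays, 127 spanned that much, with V replicate 2 the highest in 121 and the lowest in 5. Without V replicate 2 only 2 rows spanned that much, without V replicate 1 there were 70, and without V replicate 3 there were 142. FAM111B, a protease of replicating cells, read 5.37, 7.35 and 5.63. CENPF, a kinetochore protein, read 6.05, 8.04 and 6.35. HMMR and TTK, both of the mitotic spindle, read 6.59 and 6.61 on V replicate 2 against 4.74 to 4.93 on the other two, which is below the level there. ASPM, CLSPN, KNL1 and ESCO2, genes of spindle, replication checkpoint, kinetochore and sister chromatid cohesion, averaged 6.12, 5.81, 6.08 and 7.40, all highest on V replicate 2, as were CIP2A and PAX8-AS1. These 10 had the largest SD among rows whose mean lay above the mean level, and HMMR, TTK, ASPM and CLSPN were not above it on every array.

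A list of 33 proliferation genes followed the same order. They passed the olfactory level in 31 genes and the skin-family level in 9, led by CDK4, CCND1, RRM1 and CDK6 at 10.14, 8.95, 8.89 and 8.81, with CDK1 and CCND2 the dimmest at 5.69 and 4.93. V replicate 2 was the highest of the 3 arrays in 32 of them, against 33.5% of all genes and 39.3% of those above the olfactory level, and the medians of the list were 6.82, 8.02 and 7.22. In the cultures with the other treatments, replicate 2 also had the highest median of the list, at 8.15 with 3α-THP and 7.90 with P4 and with F, against 6.89 to 7.40 in their replicates 1 and 3. With this list left out, 132 rows still spanned over 1 log2 unit, 124 of them highest on V replicate 2. Some members of the list were themselves among the wide rows, and the list was chosen with earlier results of these data known.

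Other groups moved with this culture. Collagens were lowest on V replicate 2 in 41 of 43 genes, against 43.6% of all genes. Matrix glycoproteins were lowest there in 24 of 34, and so were many members of unrelated and mostly dimmer lists such as potassium channels (60 of 86), HOX genes (20 of 27) and forkhead factors (27 of 39). Proteasome subunits were highest there in 31 of 36 and respiratory chain genes in 59 of 79. The part of proliferation in the differences of the other genes was not tested. Without V replicate 2, 13425 rows passed the olfactory level, and the count of members past it moved by over 1.5 times in 0 of the 75 lists.

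**Figure D5:**
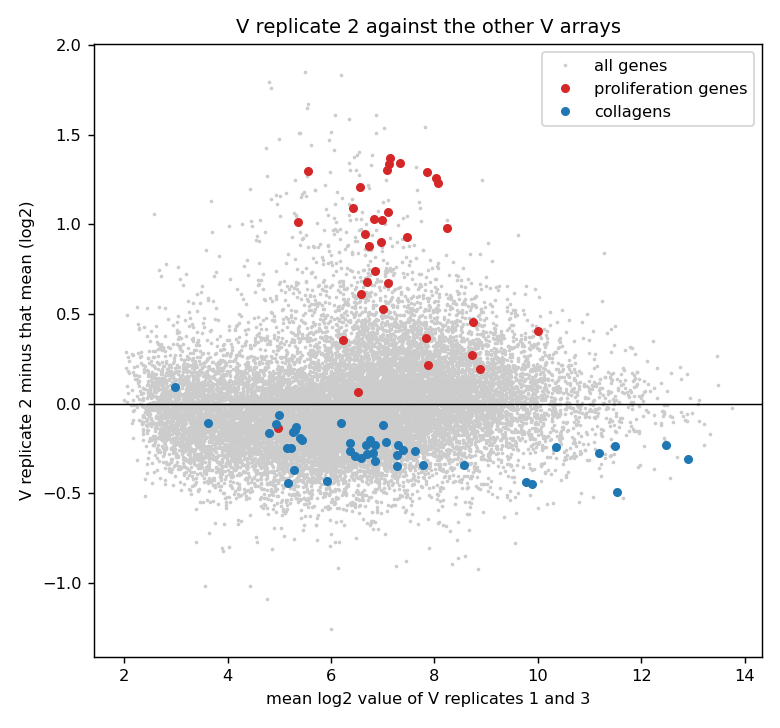
Difference of V replicate 2 from the mean of V replicates 1 and 3 (y axis, log2) against that mean (x axis, log2) for all genes (grey), proliferation genes (red) and collagens (blue). All but 1 of the proliferation genes lie above 0 and all but 1 of the collagens below it.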

How the data were processed

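Total RNA of 3 independent V cultures was hybridized to Affymetrix Human Gene 1.0 ST arrays. For each transcript cluster the authors deposited 1 log2 value per array, and the labels name Affymetrix Expression Console 1.4 as their tool. The paper names quantile normalization and a robust multiarray average for its own analysis, and the normalization of the deposited table is not given in the sources used here. The values hold no detection calls or probe signals, and 3 arrays limit the precision. Gene names came from the platform annotation, with 19429 of 19460 single-gene rows updated through their gene number. In 361 rows the values equal those of another row, so counts of rows include copies.

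Rows were ranked by the mean over V with pandas 2.3.3 and numpy 2.4.6 (Python 3.11.15), and quantile normalization of the V arrays in limma 3.58.1 (R 4.3.3) was an alternative. A row was called above a reference level only when it exceeded the level of its own array on all 3. No test was run, since no groups were compared. The ranking and the calls were checked on simulated data, the calls only for genes set far above or far below the level. The list counts were not checked in this way. The members and the 75 gene lists, written from general knowledge, were chosen with earlier results of these data known, and 7 lists (small RNA classes, long intergenic RNAs and metallothioneins) were added after the values were seen. Genes named are the 30 brightest and 20 dimmest, the 4 brightest and 2 dimmest of a list or the members above the level in a mostly dim list, the 10 widest rows, genes near MTAP, and CDKN2A, CDKN2B, EGFR, GFAP, MGMT, PGR and NR3C1. PGK1 and the genes with printed promoters, among them PMCH, were picked after their values were seen. Some genes of the rule are not reported here. Alternatives changed the reference family and percentile, the normalization, the average, the arrays and the rule for several rows.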

Additional observations from a re-analysis of the deposited data

How the results depend on the processing

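The counts of rows depended most on the reference family: with the skin-family level, 4575 rows were above and 13691 at or below on all 3 arrays. With other percentiles of the olfactory receptors, the mean of the arrays in place of each array, quantile normalization or an array left out, 10567 to 14405 rows were above and 4308 to 7627 at or below. Without V replicates 1, 2 or 3 in turn, these counts ran from 13346 to 13425 and from 5447 to 5541. The number of rows spanning over 1 log2 unit ran from 2 to 142 with an array left out, 2 without V replicate 2 and 70 without V replicate 1. With the proliferation list left out it was 132, and among rows above the level on all 3 arrays 127 (both chosen after seeing the data, as was the skin-family level for the lists).

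Of the 50 brightest rows, 44 to 50 stayed among the 50 under the alternatives, and of the 50 dimmest, 38 to 49. These alternatives include the mean over all 12 arrays, treated cultures among them, with 49 of the brightest and 39 of the dimmest kept. The count of members above the level moved by over 1.5 times in 57 of 75 lists with the skin-family level, in 23 with the 99th percentile of the olfactory receptors, in 1 with the mean over the rows of a gene (hemoglobins) and in 2 without V replicate 3 (liver proteins, from 3 to 5, and hemoglobins, from 1 to 2). Depth and probe signal over background were not available for these values, so rows between both levels cannot be placed. No paired analysis was possible because the V arrays are 1 group and no result comes from a test between groups.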
